A study of Danio rerio with 12 samples.

Results

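The comparison described here is the effect of 2,3,7,8-tetrachlorodibenzo-p-dioxin (TCDD) on mRNA in regrowing caudal fins of zebrafish larvae, taken as the mean of its effects on 2 days. It rests on all 12 arrays of the study, 6 from TCDD-exposed and 6 from vehicle-exposed larvae, chosen by their labels alone. Larvae of the AB strain, with no mutation or transgene named in the labels, had the caudal fin cut off at 2 days post fertilization and were then kept for 1 h in water with TCDD at 0.5 ng/mL or with the vehicle DMSO. After rinsing they were reared without TCDD until 2 or 3 days post amputation (dpa), when the regrown tissue was collected. TCDD and vehicle were thus each sampled on both days, which gives 4 groups of 3 arrays. Both the TCDD and the vehicle larvae had been amputated, and uncut fins are not analysed here. Each array holds RNA pooled from 150 fins, and 100 ng of it went through 2 cycles of labelling, so the p-values measure the spread between pools and not between larvae.

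TCDD binds the aryl hydrocarbon receptor (AHR), a transcription factor that pairs with ARNT in the nucleus and switches on genes of foreign-compound metabolism, above all cytochrome P450 1 genes. A fin regrows in a fixed order: epidermis covers the wound, mesenchymal cells gather beneath it as a blastema and divide, and the new tissue lays down matrix and skeleton. Wnt, FGF, BMP, retinoic acid and Hedgehog signals pass between these layers. TCDD is known to stop this regrowth in zebrafish through AHR2.

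The deposited value is a ratio, the signal of a probe set on an array over a reference value of that probe set near its median across the 12 arrays. A ratio of 1 is thus the middle of the study, and levels of different genes cannot be compared. An effect below is the log2 ratio with TCDD minus that with vehicle, averaged over 2 dpa and 3 dpa, ± its standard error from limma's fit to all 12 arrays. A probe set was called when its Benjamini-Hochberg adjusted p over 15502 probe sets was under 0.05.

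Several measures of the arrays bear on what follows. The 5′ over 3′ difference of the GAPDH control, a measure of how much of the transcript was copied, was 0.169 to 0.486 on the TCDD arrays and -0.102 to 0.0816 on the vehicle arrays, with no overlap. The mean difference was 0.279 log2 (exact permutation p within days = 0.005, the smallest that 400 arrangements allow, 0.03 after adjustment over 6 measures). Its part in the results was not tested. The hybridisation controls averaged -0.14 to 0.326 log2 on the TCDD arrays and -0.16 to 0.269 log2 on the vehicle arrays. At 3 dpa this average was 0.249 to 0.269 on the vehicle arrays. It was -0.0825, 0.326 and -0.0705 on TCDD 3 dpa replicates 1, 2 and 3, so at 3 dpa it was partly tied to treatment. With that average as a covariate, calls fell to 296 probe sets. In pooled tissue, fewer cells of a type and less RNA per cell cannot be told apart. Ratios do not show whether a gene is present, but 22.5% of the tested probe sets had a median ratio below 1, which can mark dim probe sets where a floor is set on the divisor, and none was removed for it. All probe sets of 17 of 26 measured neural and eye markers and of 19 of 31 liver, gut and yolk markers were of that kind, against 3 of 62 epidermal genes and 0 of 11 fin fold genes.

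TCDD changed 775 of 15502 probe sets over both days (5.0%), of which 279 were higher (1.80%) and 496 lower (3.20%) with TCDD. By gene, 189 of 8793 genes had a probe set called higher (2.15%) and 384 one called lower (4.37%), and no gene had both. The shares of gene lists given further on stand beside these shares of all genes. An unadjusted p under 0.05 was reached by 3333 of the 15502 probe sets. List members counted at that threshold stand beside this number, which counts probe sets and not genes. The median size of a call was 0.72 log2 among the higher and -0.69 log2 among the lower probe sets, and 77 higher and 132 lower probe sets differed by more than 1 log2. On each of the days separately, the 3 TCDD and 3 vehicle arrays did not overlap for 236 of the 279 higher calls and 420 of the 496 lower calls. The same held for 2.83% of all probe sets on the higher side and 4.23% on the lower side, and since the calls were made on these same values nothing is read from it. The number called depended on single arrays. Removing replicate 1 of either vehicle group left 296 (2 dpa) or 298 (3 dpa) calls, and removing replicate 2 of the vehicle group of 2 dpa left 342. Removing any of TCDD 2 dpa replicate 3, TCDD 3 dpa replicates 1 and 3, vehicle 2 dpa replicate 3 and vehicle 3 dpa replicate 2 left 403 to 440. Removing TCDD 3 dpa replicate 2 gave 1471. Of the calls, 236 were made whichever array was left out.

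Called effects mostly had the same sign on both days. At 2 dpa alone 25 probe sets were called (0.161%) and at 3 dpa alone 89 (0.574%), and 18 were called on both, which is 72% of the 2 dpa calls and 20.2% of the 3 dpa calls. No arrays are shared between those comparisons, but both take their variance from the same fit to all arrays. All 25 calls of 2 dpa had the same sign at 3 dpa. Of the 89 calls of 3 dpa, 88 had the same sign at 2 dpa. Over all probe sets, called or not, 69.5% had the same sign on both days. Of the calls over both days, 680 were made on neither day alone. The test of the difference between the days called 0 probe sets in limma (0%), with a lowest adjusted p of 1, 226 probe sets at an unadjusted p under 0.05, and 0 in the unmoderated test. A test without calls does not show that the effects were equal. Among the called genes the lowest p for that difference were those of myoz1b, a gene of the muscle Z-disc, with effects of 0.49 log2 at 2 dpa and 1.2 at 3 dpa (unadjusted p = 0.00102), and of daxx, a histone chaperone gene, with -0.81 at 2 dpa and -0.03 at 3 dpa (unadjusted p = 0.00131). One effect was thus the larger at 3 dpa and the other at 2 dpa. A second daxx probe set was not called at -0.48 log2, with -0.80 at 2 dpa and -0.16 at 3 dpa. The effect was the larger at 3 dpa in 210 of the 279 higher and in 318 of the 496 lower calls. The matching share over all probe sets was not counted, so nothing is read from this.

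**Figure D1:**
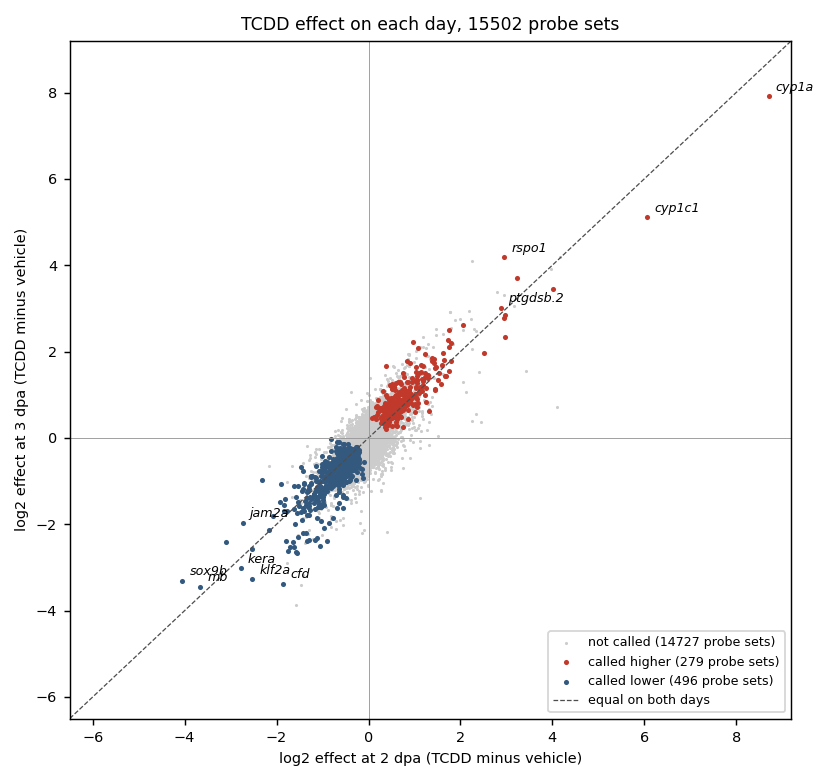
Effect of TCDD at 2 dpa (x axis) and at 3 dpa (y axis), each as log2 with TCDD minus log2 with vehicle, for 15502 probe sets. Red and blue points are the 279 higher and 496 lower calls of the mean over both days, and the dashed line marks equal effects, with cyp1a and cyp1c1 far to the upper right and sox9b and mb to the lower left.

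Most measured genes of the AHR battery rose. Of 7 measured members of the AHR battery 4 were called higher (57.1%, against 2.15% of all genes) and 0 lower, with a median effect of 1.17 log2. The ratio of cyp1a, the monooxygenase that is the standard read-out of AHR activity, was 3.17, 2.41 and 2.28 on the TCDD arrays of 2 dpa and 2.05, 4.3 and 1.98 on those of 3 dpa, against 0.0196, 0.0159 and 0.000773 on the vehicle arrays of 2 dpa and 0.00398, 0.0241 and 0.0127 on those of 3 dpa. Every TCDD array was far above every vehicle array. The effect was 8.31 ± 0.77 log2 (limma, adjusted p = 0.000909), 8.70 at 2 dpa and 7.92 at 3 dpa, a fold that rests on vehicle signals near the bottom of the scale: leaving out 1 array moved it by up to 1.68-fold.

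cyp1c1, a related P450 gene, had ratios with lowest, median and highest values of 1.7, 2.21 and 3.45 on the TCDD arrays, against 0.016, 0.0394 and 0.301 on the vehicle arrays. Its effect was 5.59 ± 0.58 log2 (limma, adjusted p = 0.00153), and its other probe sets gave 0.91 (called) and 0.11 (not called). The groups did not overlap. tiparp, an ADP-ribosyltransferase that AHR induces and that in turn restrains AHR, had 1.13, 1.67 and 1.95 on the TCDD arrays, against 0.637, 0.694 and 0.871 on the vehicle arrays (effect 1.17 ± 0.14 log2, limma adjusted p = 0.00289). sult6b1, a cytosolic sulfotransferase, had 1.27, 1.48 and 1.77 on the TCDD arrays, against 0.403, 0.645 and 0.731 on the vehicle arrays (effect 1.27 ± 0.12 log2, limma adjusted p = 0.000884). Both genes were higher on every TCDD array than on any vehicle array, and all 4 calls held whichever array was left out. Of the other members, cyp1d1 had an effect of 0.04 log2, the quinone reductase gene nqo1 -0.34 (adjusted p = 0.0636) and the stress regulator nfe2l2a 0.71 for its probe set of lowest p (adjusted p = 0.0842).

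The receptor and its partners made no call. Of 9 measured genes for AHR receptors, ARNT-type partners and chaperones of the receptor 0 were called in limma and in the unmoderated test, 3 had an unadjusted p under 0.05, and 8 had an effect above 0. With array weights 2 were called higher. ahr2, the receptor that carries TCDD toxicity in zebrafish, had an effect of 0.49 ± 0.12 log2 (adjusted p = 0.0513), and the chaperone gene hsp90aa1.2 one of 3.12 ± 0.98 log2 (adjusted p = 0.0953). The heat shock gene hsp70.3, of another list, had 4.17 ± 1.14 log2 (adjusted p = 0.0647), and none of these 3 genes passed the test.

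Among other enzymes of foreign-compound metabolism, cyb5a, the cytochrome b5 that hands electrons to P450 enzymes, had ratios of 1.56 to 3.11 (median 2.41) on the TCDD arrays, against 0.222 to 0.439 (median 0.319) on the vehicle arrays. The groups did not overlap, and the effect was 2.90 ± 0.18 log2, a 7.49-fold rise (limma, adjusted p = 7.24e-05). gsto2, an omega glutathione transferase, rose by 0.49 ± 0.07 log2 (limma, adjusted p = 0.00786). With sult6b1 these made 3 of 15 measured conjugation and electron-transfer genes called higher (20%, against 2.15% of all genes). None was called lower (against 4.37%), and the list's median effect was 0.00 log2. Without TCDD 3 dpa replicate 2, 2 members were called lower, and with array weights 4 were. Leaving out vehicle 3 dpa replicate 3 or TCDD 2 dpa replicate 2 gave 1 lower call. Of the rest, ugdh, which makes the sugar donor for glucuronidation, had -0.76 (adjusted p = 0.0531) and the sulfotransferase sult2st2 -0.76 (adjusted p = 0.0772).

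Other genes with large rises came from different pathways. ptgdsb.2, a lipocalin-type prostaglandin D synthase, had ratios of 1.62, 2.56 and 4.49 (lowest, median and highest) on the TCDD arrays, against 0.249, 0.345 and 0.382 on the vehicle arrays. It rose 7.69-fold (2.94 ± 0.24 log2, limma adjusted p = 0.000318). This was the 1 call among 12 measured genes of prostaglandin synthesis (8.33% higher, against 2.15% of all genes). Its paralog ptgdsb.1 had 0.87 (limma, adjusted p = 0.269). gchfr, which encodes the feedback regulator of the first enzyme of tetrahydrobiopterin synthesis, had 1.44 to 2.3 on the TCDD arrays, against 0.359 to 0.559 on the vehicle arrays (1.99 ± 0.13 log2, limma adjusted p = 7.57e-05). In both genes every TCDD array exceeded every vehicle array. jac1 rose by 2.65 ± 0.31 log2, the mitochondrial outer-membrane protein gene tspo by 1.93 ± 0.30, the sphingosine-1-phosphate receptor gene s1pr1 by 1.79 ± 0.22 and the chloride channel gene ano1a by 2.00 ± 0.26 (limma, highest adjusted p 0.00993). Second probe sets of s1pr1 and ano1a were not called at 0.22 and 0.24 log2. These calls held whichever array was left out.

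A probe set annotated to mpx, the neutrophil peroxidase gene, had 1.72 to 3.56 on the TCDD arrays, against 0.208 to 0.276 on the vehicle arrays (3.47 ± 0.19 log2, limma adjusted p = 2.59e-05). The 3 other mpx probe sets had effects of -0.31, 0.02 and -0.00 log2 and were not called. The array's names for the risen probe set, for these 3 and for the probe set of cyp1a all carry the same cluster number, 9478. Which transcript the risen probe set reads is thus uncertain, and the number does not set it apart from the 3 others. The probe sets described for cyp1a, s1pr1, ptgdsb.2, sox3, sparc, postnb, krt91, plk1, mad2l1 and rrm1 likewise share a cluster number with probe sets of other genes. The same uncertainty holds for them. The risen mpx probe set was the 1 call among 17 measured markers of neutrophils and macrophages (5.88% higher, against 2.15% of all genes). The median effect of these markers was 0.06 log2. The neutrophil lysozyme gene lyz and the leukocyte gene ptprc had 0.44 (adjusted p = 0.813) and -0.00 (adjusted p = 0.998).

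**Figure D2:**
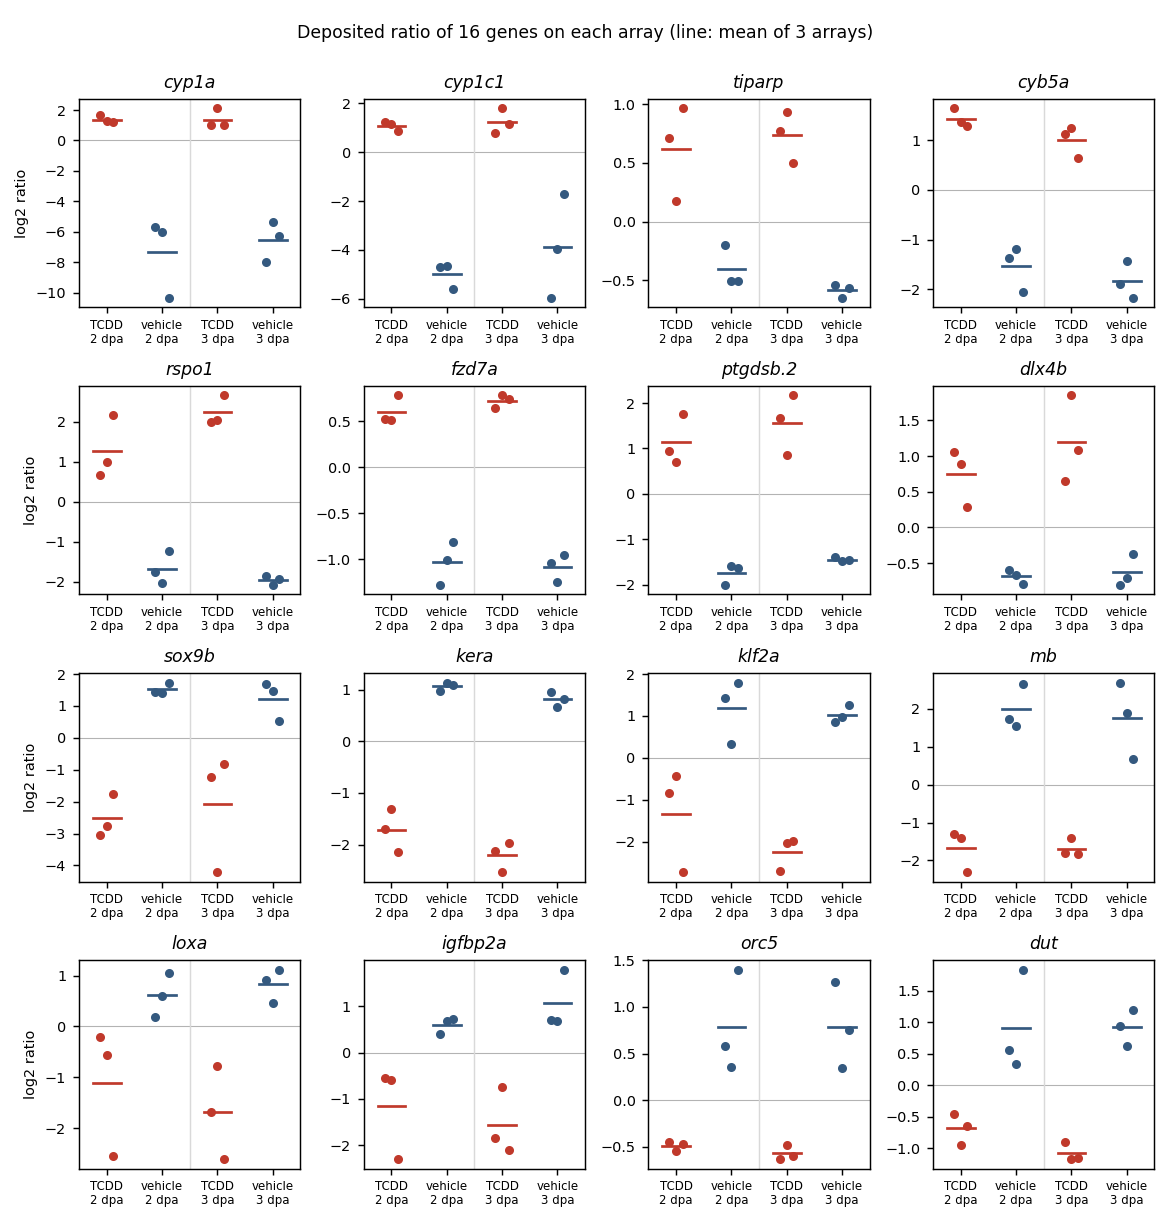
log2 of the deposited ratio for 16 genes, 1 point an array and a line at the mean of 3 arrays, with TCDD (red) left of vehicle (blue) on each day. In the upper 8 genes every TCDD array lies above every vehicle array, as with cyp1a at ratios of 1.98 to 4.3 and 0.000773 to 0.0241, and in the lower 8 genes every TCDD array lies below.

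Wnt pathway genes moved both ways. Of 35 measured members 3 were called higher (8.57%, against 2.15% of all genes) and 3 lower (8.57%, against 4.37%). The median effect was -0.01 log2, a value that changed sign under 8 of the alternatives, centring and quantile normalization among them. rspo1, a secreted protein that strengthens Wnt signals, had 1.58, 2 and 4.48 on the TCDD arrays of 2 dpa and 3.97, 4.14 and 6.28 on those of 3 dpa, against 0.295, 0.244 and 0.423 on the vehicle arrays of 2 dpa and 0.274, 0.236 and 0.263 on those of 3 dpa. All TCDD arrays were above all vehicle arrays. It rose 11.9-fold (3.57 ± 0.25 log2, limma adjusted p = 0.000124), by 2.95 at 2 dpa and 4.19 at 3 dpa, a difference with an unadjusted p of 0.0342 and an adjusted p of 1.

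fzd7a, a Wnt receptor gene, had 1.43, 1.62 and 1.72 (lowest, median and highest) on the TCDD arrays, against 0.412, 0.492 and 0.569 on the vehicle arrays. It rose 3.30-fold with little spread (1.72 ± 0.10 log2, limma adjusted p = 2.59e-05). The receptor gene fzd10 fell by 0.87 ± 0.14 log2 (limma, adjusted p = 0.0128), with 1.15 lower in its second probe set. The calls of rspo1, fzd7a and fzd10 held whichever array was left out. dkk1b, a secreted Wnt inhibitor, rose by 1.28 ± 0.31 log2 (limma, adjusted p = 0.0434), a call that ended without any 1 of 10 arrays, at most with an adjusted p of 0.102 without vehicle 2 dpa replicate 1. The receptor gene fzd8a fell by 0.88 ± 0.21 log2 and axin2, a feedback inhibitor that Wnt signalling induces, fell by 0.63 ± 0.15 log2 (limma, adjusted p 0.0436 and 0.0477). Both lost the call, without any 1 of 11 and of 10 arrays (up to 0.0984 without TCDD 2 dpa replicate 3 and 0.102 without vehicle 2 dpa replicate 3), and a second fzd8a probe set was not called at -0.31. The transcription factor gene lef1 and the ligand gene wnt5b were not called at 0.69 and -0.14. With vehicle 2 dpa replicate 1 left out, 1 of the 3 lower calls of the pathway was made. Outside the list, the secreted Wnt inhibitor gene notum1b rose by 1.26 ± 0.16 log2 (limma, adjusted p = 0.0043). The Wnt co-receptor gene ror2, also outside it, fell by 0.54 ± 0.07 log2 (limma, adjusted p = 0.00502). The calls of notum1b and ror2 were made under all alternatives.

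The lists of the other signalling pathways gave 0 to 2 calls in each direction. In the BMP and TGF-beta list 2 of 34 measured members rose and 2 fell (5.88% each, against 2.15% and 4.37% of all genes). The activin-binding protein gene fsta rose by 1.58 ± 0.29 log2 and the ligand gene bmp2a by 0.48 ± 0.11 (limma, adjusted p 0.0191 and 0.0361). tgfbi, a matrix protein that TGF-beta induces, fell by 1.17 ± 0.15 log2 and the transcriptional inhibitor gene id2b by 1.24 ± 0.30 (limma, adjusted p 0.00453 and 0.0427). The call of tgfbi held whichever array was left out, that of fsta ended without vehicle 2 dpa replicate 1 (adjusted p = 0.0514). Those of bmp2a and id2b each ended without any 1 of 10 arrays (highest adjusted p 0.0882 and 0.102, both without vehicle 2 dpa replicate 1). Second probe sets of fsta and id2b were not called at 0.41 and -0.33, and inhbaa, an activin subunit gene, had 1.00 (adjusted p = 0.102). gdf6a, a BMP-family ligand gene outside the list, was called higher, with a mean effect over its probe sets of 1.32 log2. Whether that call held with arrays left out is not given here.

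FGF genes gave 2 lower calls of 20 (10%, against 4.37% of all genes), fgfr2 at -1.08 ± 0.25 and the ligand gene fgf3 at -0.55 ± 0.11 log2 (limma, adjusted p 0.039 and 0.0268). These ended without any 1 of 9 and of 4 arrays, with adjusted p up to 0.09 (without vehicle 3 dpa replicate 1) and 0.0674 (without vehicle 2 dpa replicate 2), and a second fgfr2 probe set had -0.10. Hedgehog genes gave 2 lower calls of 14 (14.3%). boc, a co-receptor, fell by 1.21 ± 0.21 log2 (limma, adjusted p = 0.016; a second probe set was not called at -0.80) and gli3, a transcription factor of the pathway, by 0.45 ± 0.09 (limma, adjusted p = 0.0252). The gli3 call ended without any 1 of 6 arrays (up to 0.0615 without vehicle 2 dpa replicate 1). shha itself had 0.11 (adjusted p = 0.697).

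In the retinoic acid list 1 of 20 measured genes was called lower (5.0%, against 4.37% of all genes). rbp4, the retinol carrier, had 0.463, 0.64 and 0.806 (lowest, median and highest) on the TCDD arrays, against 1.19, 1.53 and 1.78 on the vehicle arrays, without overlap (-1.24 ± 0.14 log2, limma adjusted p = 0.00274). aldh1a2, which makes retinoic acid, had -1.22 (adjusted p = 0.0939) and cyp26b1, which breaks it down, -0.83 (adjusted p = 0.0759). In the IGF list 1 of 13 was called lower (7.69%): igfbp2a, an IGF-binding protein, had 0.203, 0.438 and 0.682 on the TCDD arrays, against 1.32, 1.63 and 3.47 on the vehicle arrays, also without overlap (-2.19 ± 0.36 log2, limma adjusted p = 0.013). Both held whichever array was left out. In the Notch list her9, a transcriptional repressor, was the 1 call of 24 (4.17% higher, against 2.15% of all genes) at 0.79 ± 0.17 log2 (limma, adjusted p = 0.0292), ending without any 1 of 7 arrays (up to 0.0699 without vehicle 3 dpa replicate 1).

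Hox genes made no call in limma, and blastema genes made calls in both directions. Of 40 measured Hox genes 0 were called in limma and in the unmoderated test and 9 had an unadjusted p under 0.05; hoxb10a came closest at -0.55 (adjusted p = 0.0506). With the array weights, 1 was called higher and 4 lower. Of 33 blastema and mesenchyme genes 1 rose and 2 fell, shares of 3.03% and 6.06% beside 2.15% and 4.37% of all genes. prrx1b, a homeobox gene of limb and fin mesenchyme, had 0.455, 0.586 and 0.79 on the TCDD arrays, against 1.21, 1.39 and 2.19 on the vehicle arrays (-1.31 ± 0.18 log2, limma adjusted p = 0.00502). msx1a, a homeobox gene of dividing mesenchyme, had 0.594, 0.721 and 1.0 on the TCDD arrays, against 0.998, 1.39 and 1.52 on the vehicle arrays (-0.83 ± 0.13 log2, limma adjusted p = 0.0117). The groups were apart in prrx1b and touched at 1 array in msx1a, and both calls held whichever array was left out. Its paralogs msx1b and msx2b had 0.24 and 0.27 and were not called. evx1, a homeobox gene of fin ray joints, rose by 0.87 ± 0.19 log2 (limma, adjusted p = 0.0314), a call that ended without any 1 of 8 arrays (up to 0.0727 without vehicle 2 dpa replicate 2).

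The sox family gave 1 call in each direction among 17 measured genes (5.88% each, against 2.15% higher and 4.37% lower of all genes). sox9b, a transcription factor of cartilage and mesenchyme, had 0.122, 0.146 and 0.298 on the TCDD arrays of 2 dpa and 0.43, 0.0541 and 0.57 on those of 3 dpa, against 2.73, 2.68 and 3.33 on the vehicle arrays of 2 dpa and 3.23, 2.78 and 1.43 on those of 3 dpa. Every TCDD array was below every vehicle array. It fell 12.8-fold (-3.68 ± 0.54 log2, limma adjusted p = 0.00786), the lowest effect among the named genes, and the call held whichever array was left out. A second sox9b probe set had 0.01 (adjusted p = 0.951), and its paralog sox9a had 0.04 (adjusted p = 0.753). sox3, known as a gene of early neural and placodal tissue, rose by 1.42 ± 0.20 log2 (limma, adjusted p = 0.00657); of its other probe sets one rose by 1.34 and one was not called at 0.10.

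Some skeletal and matrix genes fell. Of 24 measured cartilage and bone genes 4 were called lower (16.7%, against 4.37% of all genes) and 0 higher, though the list's median effect was 0.01 log2. Beside sox9b these were sparc, a collagen-binding protein of bone (-0.76 ± 0.13 log2, limma adjusted p = 0.0146), the cartilage protein gene cnmd (-1.18 ± 0.28, adjusted p = 0.0399) and col11a1a (-1.54 ± 0.35, adjusted p = 0.0367). The last 2 calls each ended without any 1 of 10 arrays (up to 0.0905 without vehicle 3 dpa replicate 1 and 0.0814 without vehicle 2 dpa replicate 3). With any 1 array left out other than TCDD 2 dpa replicate 1 and TCDD 3 dpa replicate 2, 2 or 3 genes of this list were called lower, against 7 without TCDD 3 dpa replicate 2. The bone regulator sp7 and the cartilage collagen gene col2a1a had 0.13 and 0.24 and were not called.

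Of 18 measured collagen genes 5 were called lower (27.8%, against 4.37% of all genes) and 0 higher. The median effect was -0.19 log2, with 12 effects below 0 and 6 above. All probe sets of 7 of the 18 had a median ratio below 1. col15a1a, a basement-membrane collagen, had 0.309, 0.456 and 0.996 on the TCDD arrays, against 1.0, 1.53 and 2.21 on the vehicle arrays (-1.71 ± 0.30 log2, limma adjusted p = 0.0159). col17a1b, of the anchoring complexes of the epidermis, had 0.393 to 0.856 on the TCDD arrays, against 1.14 to 2.37 on the vehicle arrays (-1.25 ± 0.22 log2, limma adjusted p = 0.0146). Neither gene's groups overlapped, and both calls held whichever array was left out. col1a2 fell by 1.32 ± 0.26 log2 (limma, adjusted p = 0.0246; a second probe set was not called at -1.21) and col6a3 by 0.97 ± 0.21 (limma, adjusted p = 0.0311). These calls ended without any 1 of 5 and of 8 arrays (up to 0.0614 without vehicle 2 dpa replicate 1 and 0.0733 without vehicle 2 dpa replicate 2). Without any 1 of vehicle 2 dpa replicates 1, 2 and 3 and vehicle 3 dpa replicate 2, 2 collagen genes were called lower, against 7 without TCDD 3 dpa replicate 2 and 0 with the hybridisation level as covariate.

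Enzymes that fold and cross-link collagen made the largest share of lower calls among the 46 lists, 5 of 15 measured (33.3%, against 4.37% of all genes), with 13 of 15 effects below 0 and a median of -0.82 log2. loxa and loxl2b, lysyl oxidases that cross-link collagen fibres, fell by 2.12 ± 0.43 and 2.11 ± 0.43 log2 (limma, adjusted p 0.0248 and 0.0268). The peptidyl-prolyl isomerase genes fkbp9 and fkbp14 and the prolyl hydroxylase gene p4ha1b fell by 1.32 ± 0.29, 1.25 ± 0.29 and 1.28 ± 0.30 (limma, adjusted p 0.0329, 0.0379 and 0.0417). loxa had 0.863, 0.674 and 0.171 on the TCDD arrays of 2 dpa and 0.31, 0.584 and 0.164 on those of 3 dpa, against 1.14, 1.51 and 2.06 on the vehicle arrays of 2 dpa and 1.88, 1.38 and 2.17 on those of 3 dpa. The groups were apart, but the TCDD arrays were uneven. The list's median log2 ratio was -1.27, -1.13 and -1.08 on TCDD 2 dpa replicate 3 and TCDD 3 dpa replicates 1 and 3, and 0.03, -0.11 and -0.32 on the other TCDD arrays, against -0.03 to 0.62 on the vehicle arrays. No member was called lower in limma without any 1 of vehicle 2 dpa replicates 1, 2 and 3, vehicle 3 dpa replicate 1 and TCDD 3 dpa replicates 1 and 3, nor in the unmoderated test or with the hybridisation level as covariate. Over all arrays 12 of the 15 had an unadjusted p under 0.05, and 9 were called without TCDD 3 dpa replicate 2. The calls of loxa and loxl2b ended without any 1 of 6 and of 7 arrays (up to 0.0597 and 0.0656, both without vehicle 3 dpa replicate 1). Those of fkbp9, fkbp14 and p4ha1b ended without any 1 of 10, 9 and 11 (up to 0.0754, 0.0842 and 0.0999, all without vehicle 2 dpa replicate 1). serpinh1b, a collagen chaperone, had 0.97 (adjusted p = 0.142).

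Of 35 measured proteoglycan, glycoprotein and integrin genes 5 were called lower (14.3%, against 4.37% of all genes) and 2 higher (5.71%, against 2.15%). kera, which encodes the small matrix proteoglycan keratocan, had 0.309, 0.405 and 0.225 on the TCDD arrays of 2 dpa and 0.23, 0.173 and 0.257 on those of 3 dpa, against 1.97, 2.2 and 2.13 on the vehicle arrays of 2 dpa and 1.95, 1.59 and 1.76 on those of 3 dpa. The arrays of each group lay close together and far from the other group, a 7.47-fold fall (-2.90 ± 0.15 log2, limma adjusted p = 2.59e-05). sulf2b, a sulfatase that edits heparan sulfate, fell by 2.07 ± 0.28 log2 (limma, adjusted p = 0.0051). The matricellular gene postnb fell by 1.32 ± 0.13 (limma, adjusted p = 0.00105) and by 2.11 in a second probe set, with tgfbi and sparc the other lower calls of the list. thbs1b and spon2b rose by 1.25 ± 0.17 and 2.34 ± 0.44 log2 (limma, adjusted p 0.00609 and 0.0208). Of these calls, that of spon2b ended without any 1 of 2 arrays (up to 0.0531 without vehicle 2 dpa replicate 1), and those of kera, sulf2b, postnb and thbs1b held whichever array was left out.

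Of 14 measured matrix proteases and inhibitors 3 fell (21.4%, against 4.37% of all genes). mmp14b and mmp2, a membrane protease and the gelatinase it activates, fell by 0.61 log2 each (± 0.08 and ± 0.09, limma adjusted p 0.00453 and 0.00961), and the inhibitor gene timp2a fell by 0.38 ± 0.09 (limma, adjusted p = 0.0372). The first 2 held whichever array was left out, and timp2a ended without any 1 of 11 (up to 0.0846 without vehicle 2 dpa replicate 2). The collagenase gene mmp13a had 1.59 (adjusted p = 0.0615). The actinotrichia genes and1, and2 and and3 had -0.22, -0.29 and -0.34 and were not called.

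**Figure D3:**
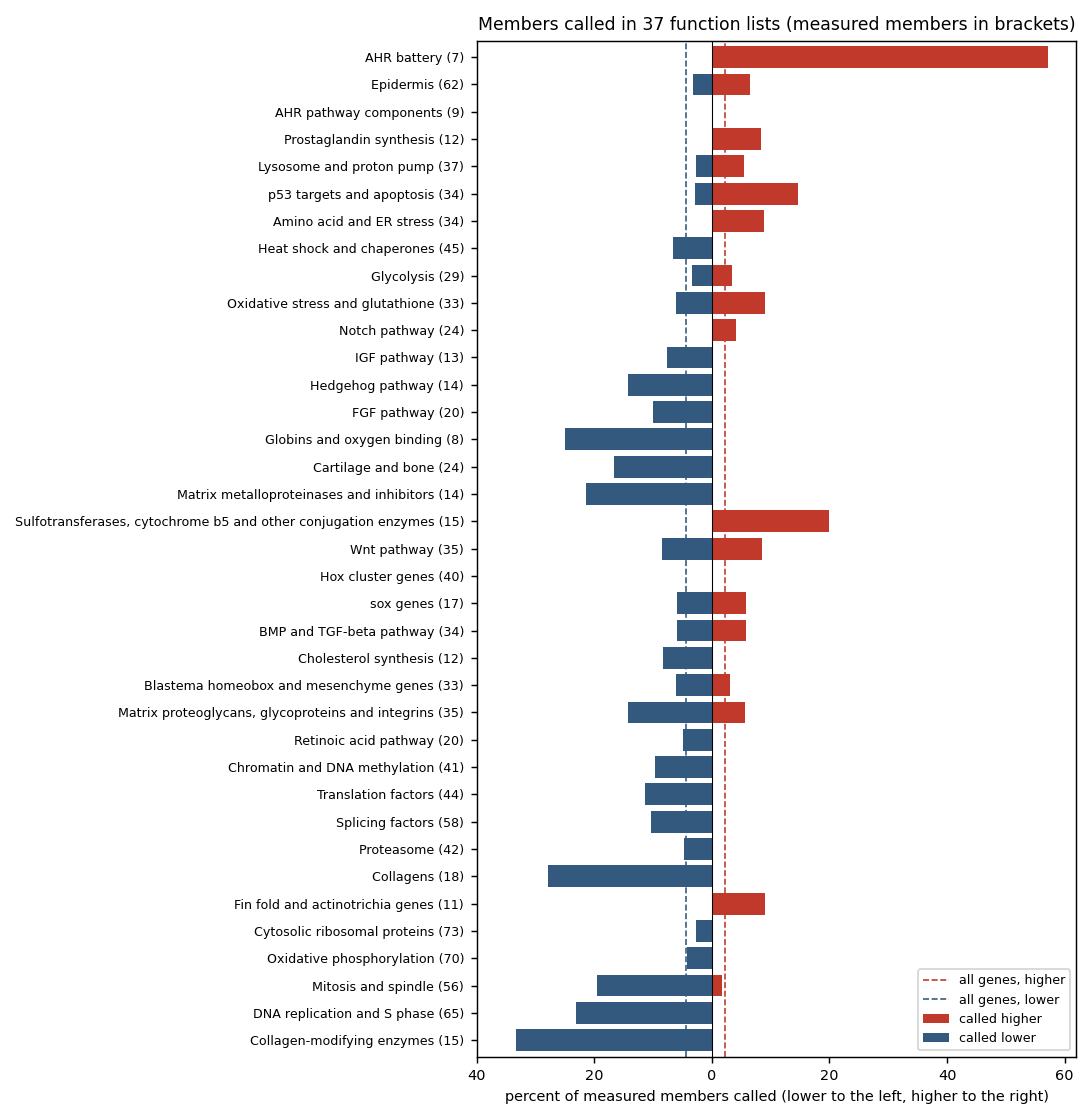
Share of the measured members of 37 function lists called higher (red, to the right) and lower (blue, to the left), with dashed lines at the shares of all genes, 2.15% and 4.37%. Lists run from the highest median effect at the top to the lowest at the bottom, where collagen-modifying enzymes (33.3% lower) and DNA replication (23.1% lower) stand.

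The cell division lists held more lower than higher calls. Of 65 measured DNA replication and S phase genes 15 were called lower (23.1%, against 4.37% of all genes), 0 higher and 50 not called, 64 had an effect below 0, and the median was -0.65 log2, -0.65 at 2 dpa and -0.64 at 3 dpa. Of all genes, 51.5% had an effect below 0 and the median was -0.01 log2. orc5, a subunit of the origin recognition complex, had 0.645, 0.701 and 0.732 on the TCDD arrays, against 1.27, 1.59 and 2.64 on the vehicle arrays (-1.31 ± 0.19 log2, limma adjusted p = 0.00786). dut, the dUTPase that keeps uracil out of DNA, had 0.443, 0.525 and 0.731 on the TCDD arrays, against 1.27, 1.74 and 3.58 on the vehicle arrays (-1.80 ± 0.24 log2, limma adjusted p = 0.00483). The TCDD arrays lay close together and below every vehicle array in both genes, while the vehicle arrays were spread.

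Others of the list called lower were orc3 (-1.25 ± 0.17 log2), the helicase subunits mcm2 and mcm3 (-1.73 ± 0.40 and -1.64 ± 0.38), the flap endonuclease gene fen1 (-1.26 ± 0.27) and the ribonucleotide reductase subunit rrm1 (-1.3 ± 0.28), with limma adjusted p of 0.00545, 0.0372, 0.0371, 0.0294 and 0.0296. A second mcm3 probe set was not called at -0.14. pcna, the sliding clamp, had -1.0 ± 0.39 (adjusted p = 0.169) and was not called. The list's median log2 ratio was -0.36 to -0.13 on the TCDD arrays and 0.03 to 1.03 on the vehicle arrays. It was 1.03, 0.63 and 0.75 on vehicle 2 dpa replicate 3 and vehicle 3 dpa replicates 1 and 3 and 0.03 to 0.07 on the other vehicle arrays. Leaving out vehicle 3 dpa replicate 1 left 3 members called lower, while the calls of orc3, orc5 and dut held whichever array was left out. Leaving out TCDD 3 dpa replicate 1 or vehicle 2 dpa replicate 1 left 5, and leaving out TCDD 2 dpa replicate 2 or 3 left 6. It was 7 to 9 without TCDD 2 dpa replicate 1, TCDD 3 dpa replicate 3, vehicle 2 dpa replicate 2 or vehicle 3 dpa replicate 3. The calls of mcm2, mcm3, fen1 and rrm1 ended without any 1 of 8, 10, 6 and 8 arrays (up to 0.0853, 0.0863, 0.0702 and 0.0713, all without vehicle 3 dpa replicate 1). With the hybridisation level as covariate 5 members were called lower, and 25 with the replicate block.

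Of 56 measured mitosis and spindle genes 11 were called lower (19.6%, against 4.37% of all genes), 1 higher (1.79%, against 2.15%) and 44 not called, with 52 effects below 0 and a median of -0.45 log2. ccnb1, the mitotic cyclin, had 0.724, 0.784 and 0.821 on the TCDD arrays, against 1.18, 1.59 and 3.73 on the vehicle arrays, without overlap (-1.23 ± 0.23 log2, limma adjusted p = 0.0195). The kinase gene plk1 fell by 1.32 ± 0.26 log2, the checkpoint genes mad2l1 and zwilch by 1.3 ± 0.28 and 0.99 ± 0.20 and the motor gene kif11 by 1.2 ± 0.26 (limma, highest adjusted p 0.0312). kif20a, another mitotic motor gene, rose by 1.60 ± 0.32 log2 in one probe set (limma, adjusted p = 0.0239; another had 0.00), a call that ended without any 1 of 5 arrays (up to 0.0568 without vehicle 2 dpa replicate 1). Members called lower numbered 2 without TCDD 2 dpa replicate 3 or TCDD 3 dpa replicate 1, 3 without TCDD 2 dpa replicate 2, 4 without vehicle 3 dpa replicates 1 or 2 or TCDD 3 dpa replicate 3, and 6 to 10 without any other array. None was called in the unmoderated test or with the hybridisation level as covariate, 18 were with the replicate block, and 39 of the 56 had an unadjusted p under 0.05. The ccnb1 call held whichever array was left out, and those of plk1 and zwilch ended without any 1 of 2 and of 3 arrays (up to 0.055 and 0.0591, both without TCDD 3 dpa replicate 1). Those of mad2l1 and kif11 ended without any 1 of 7 (up to 0.0678 without TCDD 2 dpa replicate 3).

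Most genes of the ribosomal protein, oxidative phosphorylation, proteasome, translation factor, splicing factor and chromatin lists had small effects below 0. Of 73 cytosolic ribosomal protein genes 71 had an effect below 0 (median -0.22 log2), but 2 were called (2.74%, below the 4.37% of all genes). Oxidative phosphorylation genes gave 3 lower calls of 70 (4.29%, median -0.23 log2), led by the ATP synthase subunit atp5mc1 at -0.66 ± 0.11 (limma, adjusted p = 0.0128), and proteasome genes 2 of 42 (4.76%, median -0.18). Translation factors gave 5 of 44 (11.4%), among them eif2s1a at -0.49 ± 0.07 (limma, adjusted p = 0.00545), splicing factors 6 of 58 (10.3%) and chromatin genes 4 of 41 (9.76%), among them hmgb2b at -0.58 ± 0.10 (limma, adjusted p = 0.0135; a second probe set was not called at -0.36). No member of these 6 lists was called higher. The median log2 ratio of the ribosomal protein list was -0.30 to 0.04 on the TCDD arrays and -0.22 to 0.22 on the vehicle arrays. In the same order it was -0.44 to 0.07 and -0.45 to 0.18 for oxidative phosphorylation. For the proteasome it was -0.26 to 0.01 and -0.25 to 0.21. These ranges overlap, as do those of translation factors. They did not overlap for splicing factors (-0.18 to -0.01 and 0.01 to 0.11) or chromatin genes (-0.22 to -0.05 and -0.03 to 0.19). Outside the chromatin list, the chromatin remodeller gene smarca1 rose by 0.85 ± 0.14 log2 (limma, adjusted p = 0.0132). The linker histone gene histh1l1, also outside it, rose by 0.99 ± 0.10 log2 (limma, adjusted p = 0.00124). Among other metabolic lists, glycolysis gave 1 call in each direction of 29 genes (3.45% each, against 2.15% and 4.37% of all genes). Cholesterol synthesis gave 1 lower call of 12 (8.33%), acat2 at -0.73 ± 0.11 log2 (limma, adjusted p = 0.00989). The lysosome list gave 2 higher calls and 1 lower of 37 (5.41% and 2.7%). These counts moved with single arrays. With 1 array left out, the glycolysis and the lysosome list each gave 0 to 4 higher and 0 or 1 lower calls. Neither of the 2 lists had a call in the unmoderated test. Translation factors called lower numbered 2 without any 1 of vehicle 2 dpa replicates 1, 2 and 3, vehicle 3 dpa replicate 1 and TCDD 3 dpa replicate 3, and 3 or 4 without any other array. Without vehicle 2 dpa replicate 1 or 2, 0 splicing genes were called. Removing 1 array left 0 proteasome calls, except for vehicle 3 dpa replicate 3, TCDD 2 dpa replicate 1 and TCDD 3 dpa replicate 2. No ribosomal protein gene was called without any 1 of vehicle 2 dpa replicates 1, 2 and 3 and vehicle 3 dpa replicate 1. The same held without TCDD 2 dpa replicate 2 or 3 or TCDD 3 dpa replicate 3. Without vehicle 3 dpa replicate 1 or any 1 TCDD 2 dpa array, 1 chromatin gene was called. Without any 1 of the vehicle arrays other than vehicle 3 dpa replicate 3, 1 oxidative phosphorylation gene was called lower. The same count came without TCDD 3 dpa replicate 1 or 3. Without vehicle 3 dpa replicate 3, 13 oxidative phosphorylation and 5 proteasome genes were called lower. Without TCDD 3 dpa replicate 2, 8 splicing and 8 chromatin genes were.

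In the epidermis list 47 of 62 measured genes had an effect above 0 (median 0.29 log2), 4 were called higher (6.45%, against 2.15% of all genes) and 2 lower (3.23%, against 4.37%). dlx4b, a homeobox gene, had 1.22, 1.96 and 3.6 on the TCDD arrays, against 0.572, 0.62 and 0.776 on the vehicle arrays, without overlap (1.63 ± 0.20 log2, limma adjusted p = 0.00425), and the call held whichever array was left out. Its neighbour dlx3b on chromosome 12 rose by 0.66 ± 0.15 (limma, adjusted p = 0.0389). The epithelial factor gene elf3 rose by 1.28 ± 0.31 and the tight junction gene tjp3 by 0.70 ± 0.17 (limma, adjusted p 0.0435 and 0.041), while dlx4a fell by 1.15 ± 0.27 (limma, adjusted p = 0.0416). The keratin gene krt91 fell 4.06-fold (-2.02 ± 0.38 log2, limma adjusted p = 0.0204). The calls of dlx3b, tjp3, elf3 and dlx4a ended without any 1 of 9, 8, 10 and 9 arrays and that of krt91 without 1 (up to 0.0954, 0.0972, 0.103, 0.0992 and 0.052, all without vehicle 2 dpa replicate 1). With the hybridisation level as covariate 1 higher and 0 lower calls of the list were made. The epidermal regulator tp63 and the keratin gene krt4 had -0.23 and -0.04 and were not called.

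The stress lists held calls in both directions. Of 34 amino acid and ER stress genes 3 rose (8.82%, against 2.15% of all genes) and 0 fell, all of the ATF4 family of stress-response factors: atf5a by 1.56 ± 0.20 log2, atf5b by 0.73 ± 0.12 and atf4a by 0.53 ± 0.11 (limma, adjusted p 0.00453, 0.0141 and 0.0243). The first 2 held whichever array was left out, and atf4a ended without any 1 of 4 (up to 0.063 without vehicle 2 dpa replicate 1). Without TCDD 3 dpa replicate 2, 8 genes of this list were called higher and 1 lower, and with array weights 9 higher and 3 lower. Of 34 p53 and apoptosis genes 5 rose (14.7%, against 2.15% of all genes) and 1 fell (2.94%, against 4.37%). The BH3-only genes bada and bbc3, which promote apoptosis, rose by 1.02 ± 0.18 and 1.13 ± 0.27 log2 and the pore-forming baxa by 0.49 ± 0.09 (limma, adjusted p 0.0146, 0.0413 and 0.0227). The inhibitor of apoptosis gene birc2 was also called higher (limma, adjusted p = 0.0274). That call ended without any 1 of 7 arrays (up to 0.0577 without vehicle 3 dpa replicate 1). The growth-arrest gene gadd45ab fell by 1.02 ± 0.18 (limma, adjusted p = 0.0146). Outside the list, the death ligand gene tnfsf10 fell by 0.73 ± 0.11 log2 (limma, adjusted p = 0.0101) and was called under all alternatives. bada and gadd45ab held whichever array was left out, and baxa and bbc3 ended without any 1 of 2 and of 10 (up to 0.0529 without vehicle 2 dpa replicate 2 and 0.0919 without vehicle 2 dpa replicate 3). Without any 1 of the vehicle arrays other than vehicle 3 dpa replicate 3, or of 4 TCDD arrays, 1 to 3 genes of this list were called higher, against 9 without TCDD 3 dpa replicate 2. It was 0 with the hybridisation level as covariate.

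Of 33 oxidative stress and glutathione genes 3 rose (9.09%, against 2.15% of all genes) and 2 fell (6.06%, against 4.37%). gclm, a subunit of the enzyme that starts glutathione synthesis, rose by 0.90 ± 0.20 log2 and the autophagy receptor gene sqstm1 by 0.68 ± 0.11 (limma, adjusted p 0.0321 and 0.0135), beside gsto2. The peroxiredoxin gene prdx4 fell by 0.70 ± 0.16 and the superoxide dismutase gene sod2 by 0.57 ± 0.14 (limma, adjusted p 0.036 and 0.0493). The call of gclm ended without any 1 of 8 arrays (up to 0.0744 without vehicle 3 dpa replicate 1) and those of prdx4 and sod2 without any 1 of 9 (up to 0.0805 without vehicle 2 dpa replicate 3 and 0.113 without vehicle 2 dpa replicate 1). With any 1 array left out other than vehicle 3 dpa replicate 3, TCDD 2 dpa replicates 1 and 3 and TCDD 3 dpa replicate 2, 0 genes of this list were called lower, against 4 without TCDD 3 dpa replicate 2.

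Of 45 heat shock and chaperone genes 0 were called higher (against 2.15% of all genes) and 3 lower (6.67%, against 4.37%). Of the 45 effects 28 were above 0 and 17 below, with a median of 0.06 log2. The lower calls were led by the small heat shock gene hspb1. It had 0.36, 0.608 and 0.776 on the TCDD arrays, against 1.22, 1.63 and 2.29 on the vehicle arrays. The groups were apart (-1.49 ± 0.16 log2, limma adjusted p = 0.00177), and the call held whichever array was left out. The counts of the list did not hold: without TCDD 3 dpa replicate 2, 7 genes were called higher and 4 lower, and with array weights 7 higher and 5 lower. Without any 1 of the vehicle arrays other than vehicle 3 dpa replicate 3, or without TCDD 3 dpa replicate 3, 0 were called higher and 1 lower.

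The myoglobin gene mb had 0.405, 0.38 and 0.202 on the TCDD arrays of 2 dpa and 0.284, 0.378 and 0.279 on those of 3 dpa, against 3.34, 2.95 and 6.37 on the vehicle arrays of 2 dpa and 6.49, 3.74 and 1.6 on those of 3 dpa. Every TCDD array was below every vehicle array, an 11.7-fold fall (-3.55 ± 0.34 log2, limma adjusted p = 0.00105). The cytoglobin gene cygb1 fell by 2.16 ± 0.23 log2 (limma, adjusted p = 0.00154) and by 2.56 in a second probe set. Both calls held whichever array was left out. Of 13 measured red blood cell markers 0 were called in limma and in the unmoderated test, with 3 at an unadjusted p under 0.05. Their median log2 ratio was -0.65 to -0.39 on the TCDD arrays and -0.67 to -0.39 on the vehicle arrays. Of 29 skeletal muscle markers 1 was called lower (3.45%, against 4.37% of all genes), tnni2b.1 at -0.57 ± 0.12 (limma, adjusted p = 0.0314). Of the 29 markers, 28 had an effect above 0. Their median log2 ratio was -0.32 to 0.41 on the TCDD arrays and -0.32 to -0.10 on the vehicle arrays. The call of tnni2b.1 ended without any 1 of 7 arrays (up to 0.0741 without vehicle 3 dpa replicate 1).

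Among the remaining markers of other cell types, pigment cells made the most calls, with 3 of 11 measured genes lower (27.3%, against 4.37% of all genes). mitfa, the regulator of melanophore fate, fell by 0.87 ± 0.16 log2, the melanin enzyme gene dct by 1.45 ± 0.29 and the pteridine enzyme gene gch2 by 1.77 ± 0.40 (limma, adjusted p 0.0202, 0.0235 and 0.0366). A second gch2 probe set was not called at -0.03 (adjusted p = 0.781). The scores of the list were -0.98 to -0.27 log2 on the TCDD arrays and -0.23 to 0.07 on the vehicle arrays. Its median effect was -0.16 log2, with 7 effects below 0 and 4 above. All probe sets of 4 of the 11 genes had a median ratio below 1. The genes tyr and pmelb had -0.17 and 0.01 and were not called. The calls of mitfa, dct and gch2 ended without any 1 of 2, 6 and 7 arrays (up to 0.0529, 0.0602 and 0.0892, all without vehicle 2 dpa replicate 1). Of 15 endothelial markers 1 fell and 1 rose (6.67% each, against 4.37% and 2.15% of all genes). klf2a, a flow-induced transcription factor, had 0.151, 0.248 and 0.737 on the TCDD arrays, against 1.26, 2.18 and 3.48 on the vehicle arrays (-2.90 ± 0.39 log2, limma adjusted p = 0.00502). klf2b rose by 0.97 ± 0.24 (limma, adjusted p = 0.0467). The klf2a groups were apart and its call held whichever array was left out, and that of klf2b ended without any 1 of 10 (up to 0.0958 without TCDD 2 dpa replicate 3). The vessel genes kdrl and tie1 had 0.15 and 0.19 and were not called. No call was made in limma or in the unmoderated test among 26 neural and eye, 31 liver, gut and yolk, 11 notochord and 9 lateral line markers, of which 1, 1, 2 and 2 had an unadjusted p under 0.05.

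**Figure D4:**
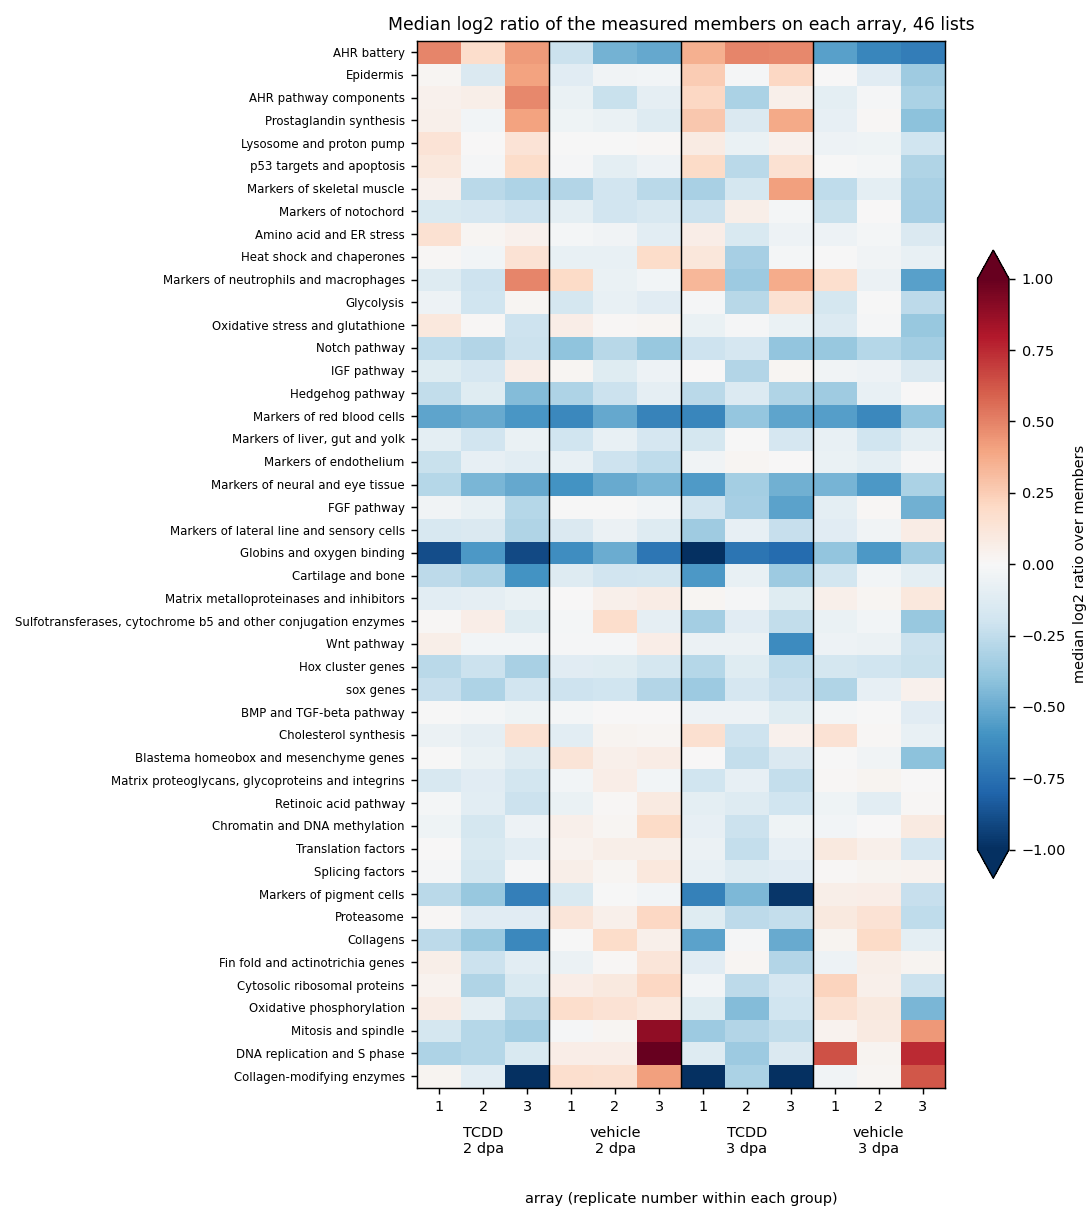
Median log2 ratio over the measured members of 46 gene lists on each of the 12 arrays, with TCDD left of vehicle on each day and lists ordered by median effect. The AHR battery is red on all 6 TCDD arrays and blue on all 6 vehicle arrays, and the DNA replication list runs from -0.36 to -0.13 on the TCDD arrays and from 0.03 to 1.03 on the vehicle arrays.

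Other large falls were of jam2a, a junctional adhesion gene (-2.35 ± 0.37 log2, limma adjusted p = 0.0107) and of cfd, the complement protease factor D (-2.61 ± 0.51, adjusted p = 0.0228). Others were of the ion channel gene hcn2b (-1.91 ± 0.41, adjusted p = 0.0312) and of the nuclear receptor gene nr2f1a (-1.78 ± 0.35, adjusted p = 0.0229). In jam2a the ratios were 0.607 to 0.975 on the TCDD arrays and 1.03 to 5.78 on the vehicle arrays, and in cfd 0.483 to 0.835 on the TCDD arrays and 1.16 to 25.8 on the vehicle arrays. The vehicle arrays were thus the more widely spread in both genes. The calls of cfd, hcn2b and nr2f1a ended without any 1 of 3, 7 and 6 arrays with adjusted p up to 0.0565, 0.0731 and 0.054, reached by leaving out vehicle 3 dpa replicate 1 for cfd and replicates 1 and 2 of vehicle 2 dpa for the other 2. Among the higher calls, uchl1 and aanat2, a deubiquitinase gene and the melatonin enzyme gene, rose by 2.13 ± 0.43 and 1.79 ± 0.37 log2 (limma, adjusted p 0.0252 and 0.0268). They lost the call without any 1 of 5 and of 6 arrays (up to 0.0622 without vehicle 2 dpa replicate 2 and 0.0688 without vehicle 2 dpa replicate 1).

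**Figure D5:**
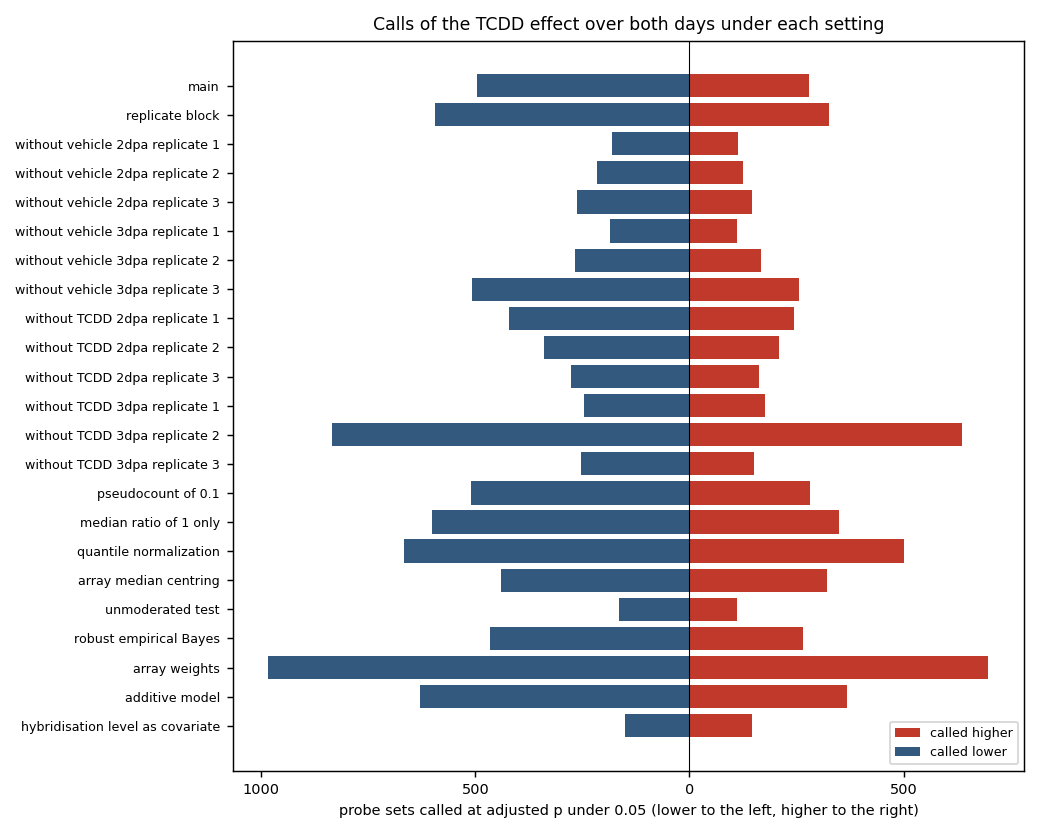
Number of probe sets called higher (red, to the right) and lower (blue, to the left) with TCDD over both days under the setting used in the text (main) and each alternative. The main counts are 279 and 496, and the totals run from 275 with the unmoderated test to 1681 with array weights.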

How the data were processed

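The authors deposited 1 table of linear ratios, made with GCRMA (version not given) per the submitters' processing notes. The divisor of these ratios is not stated and was read from the values: 12064 of 15617 rows had a median of 1 (tolerance 1e-06), 3553 a median below 1 and 0 above. After 115 control rows were left out, log2 ratios of 15502 probe sets were fitted in limma 3.58.1 (R 4.3.3) as 4 group means over 12 arrays (residual degrees of freedom 8, prior degrees of freedom 2.08). The table holds ratios, so probe sets could not be filtered on signal, and the number of arrays limits the precision. In the platform annotation 10795 of the tested probe sets name 1 gene, 135 more than 1, and 4572 no gene; 169 calls have no symbol. Symbols and neighbours come from a gene table of GRCz12tu (10711 Entrez identifiers matched, 84 not). A gene's effect in a list is the mean over its probe sets; single values are of the probe set with the lowest p.

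The members, the 46 lists (1247 measured genes) and the rules were chosen with earlier results of these data known. Named genes are up to 15 per direction with the largest effects among calls with the arrays apart on both days, cyp1a and rspo1, up to 4 per list by lowest p, and up to 5 per direction by the p of the day difference: 124 genes, most of which are described. Further members are given as values; those were chosen after their values were seen. Alternatives were each array left out, a replicate block, a pseudocount of 0.1, probe sets with a median ratio of 1 only, centring, quantile normalization, an unmoderated test, robust moderation, array weights, an additive model and the hybridisation level as covariate. The fit was run on simulated data with independent noise of the same spread on every array. That run cannot show how the fit behaves where arrays are uneven or share deviations. Same-numbered arrays had deviations correlated at -0.252 to 0.493 (18 pairs, median 0.0314, 7 pairs over 0.1). Differently numbered arrays of different groups had -0.58 to 0.453 (36 pairs, median -0.0259), so the numbers were not taken as pairs. The p-values treat the arrays of the 4 groups as independent, and deviations shared across groups were not modelled.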

Additional observations from a re-analysis of the deposited data

Results flagged for a closer look

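The 5′ over 3′ difference of the GAPDH control probe sets, a measure outside the comparison of genes, differed between the groups: it was higher by 0.279 log2 on the TCDD arrays, which ran from 0.169 to 0.486, than on the vehicle arrays, which ran from -0.102 to 0.0816 (exact permutation p within days = 0.005, the smallest possible, 0.03 after adjustment over 6 measures). The middle over 3′ difference of the same control was higher by 0.155 log2 with TCDD (p = 0.135 in the same exact test), and the 5′ over 3′ difference of actin was lower by 0.485 (difference -0.485, exact permutation p = 0.43). What these values did to the calls was not tested.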

How the results depend on the processing

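The 775 calls (279 higher, 496 lower) were 296 to 1471 when 1 array was left out (112 to 636 higher and 182 to 835 lower). They were 1168 (501 higher, 667 lower) with quantile normalization, 275 (110 higher, 165 lower) in the unmoderated test, 1681 (698 higher, 983 lower) with array weights and 296 (145 higher, 151 lower) with the hybridisation level as covariate, where 49% of the calls were higher, against 36% in the fit used here. The replicate block gave 920 (326 higher, 594 lower). The pseudocount, the filter, centring, robust moderation and the additive model gave 730 to 997. The cause of these shifts was not tested. Of the 775, 158 (69 higher, 89 lower) were called under all 22 alternatives. Of the 124 named genes 44 kept the call in all and 55 whichever array was left out. The difference between the days called 0 probe sets under each alternative that holds it, which the additive model does not. Medians of lists that lay near 0 changed sign under some alternatives, as that of the Wnt list did under 8. Signal over background is unknown for ratios; 3 of the 775 calls had a median ratio below 1.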

Other observations

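These groups were put together after the values were seen, so their counts are descriptions only. One group brings secreted and membrane proteins into the endoplasmic reticulum and attaches sugars to them. Of its 30 measured genes of the translocon, signal peptidase, oligosaccharyltransferase and its neighbours 12 were called lower (40%, against 4.37% of all genes) and 0 higher, with 27 effects below 0 and a median effect of -0.50 log2. They include the oligosaccharyltransferase subunits krtcap2 (-0.93 ± 0.19 log2), ost4 (-0.86 ± 0.20), dad1 (-0.61 ± 0.14), rpn1 (-0.55 ± 0.09) and stt3a (-0.54 ± 0.11), the signal peptidase subunits spcs1 (-0.71 ± 0.17) and sec11a (-0.70 ± 0.13) and the translocon-associated ssr1, ssr2 and ssr4 (-0.64 to -0.71), with limma adjusted p up to 0.0446 over the 12. Those of rpn1, sec11a and the signal peptide peptidase gene hm13 held whichever array was left out, and the others named ended without any 1 of 6 to 11 arrays (up to 0.103 for spcs1 without vehicle 2 dpa replicate 1). The median log2 ratio of the list was -0.55 to 0.03 on the TCDD arrays and 0.01 to 0.28 on the vehicle arrays, which overlap slightly. A second ssr1 probe set was not called at -0.50, and the probe set of dad1 shares its cluster number with one of another gene.

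Of 57 measured genes of ribosome assembly in the nucleolus 14 were called lower (24.6%, against 4.37% of all genes) and 0 higher, with 51 effects below 0 and a median of -0.28 log2. Among them were dkc1, the pseudouridine synthase (-0.92 ± 0.19 log2), pwp2h (-0.91 ± 0.12), npm1a (-0.79 ± 0.15), the methyltransferase fbl (-0.68 ± 0.16) and nop58 (-0.68 ± 0.11), with limma adjusted p of 0.0268, 0.00502, 0.0211, 0.0434 and 0.0126. The calls of pwp2h and nop58 held whichever array was left out, and those of dkc1, npm1a and fbl ended without any 1 of 8, 3 and 9 arrays. Their adjusted p reached 0.0646 for dkc1 (vehicle 3 dpa replicate 1 left out), 0.0556 for npm1a (vehicle 2 dpa replicate 1) and 0.0947 for fbl (TCDD 2 dpa replicate 3). Second probe sets of npm1a and nop58 were not called at 0.16 and -0.83. Of 30 measured genes of the circadian clock 6 were called higher (20%, against 2.15% of all genes) and 0 lower, with a median of 0.29 log2: tefa (1.29 ± 0.24 log2), csnk1e (1.04 ± 0.13), cry2 (0.97 ± 0.18), bhlhe40 (0.86 ± 0.19), bmal2 (0.75 ± 0.18) and aanat2, with limma adjusted p of 0.0195, 0.00402, 0.0213, 0.0319, 0.0409 and 0.0268. That of csnk1e, a kinase that modifies clock proteins, held whichever array was left out, and those of tefa and cry2 ended without 1 and any 1 of 2 arrays (up to 0.0522 and 0.0551, both without vehicle 3 dpa replicate 1). Those of bhlhe40, bmal2 and aanat2 ended without any 1 of 8, 9 and 6 arrays (up to 0.0756, 0.0907 and 0.0688, all without vehicle 2 dpa replicate 1). Second probe sets of cry2 and bmal2 were not called at 0.49 and 0.04, and that of tefa rose by 1.12. The largest effect of the group, that of per2, was not called (2.41 ± 0.85 log2, limma adjusted p = 0.133). It was 4.11 at 2 dpa and 0.71 at 3 dpa, and cry1a, also not called, had 1.11 and -0.07. Of the 30 effects 24 were above 0 and 6 below. The median log2 ratio of the list was -0.02 to 0.30 on the TCDD arrays and -0.32 to -0.00 on the vehicle arrays, which overlap slightly. The labels used here do not give the hour at which the fins were collected.

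Of 126 called genes with more than 1 probe set, 102 had all their probe sets on one side of 0 and 24 on both sides. A further 7 probe sets had the TCDD arrays wholly above the vehicle arrays on one day and wholly below them on the other.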
